A study of Mus musculus with 10 samples.

Results

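Collagens and the glycoproteins and proteoglycans that bind them form most of the extracellular matrix that holds salivary acini, ducts and vessels in place. The genes described here were all those on the array with a symbol made of Col, a number, a and a number, together with Dcn, Lum, Bgn, Fmod, Ogn, Sparc, Sparcl1, Fn1, Eln, Fbln1, Fbln2, Fbln5, Postn and Thbs1. They were chosen by symbol, and where a gene had several probe sets the brightest was taken. This gave 58 genes, 44 collagens and 14 glycoproteins and proteoglycans, of 22180 gene symbols measured by a probe set with 1 symbol. All 58 passed the filter on low values, as did 18826 genes in all. Fbn1, which the choice also named, was not analysed here.

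RNA was hybridised to 10 Affymetrix arrays of salivary gland cells from female NOD/shiLtJ mice, a strain that develops autoimmune diabetes and salivary gland inflammation without any engineered allele. Of these, 4 mice had type 1 diabetes at 21 weeks of age, 3 had no diabetes at 21 weeks and 3 had no diabetes at 6 weeks. Glands of all 3 groups were digested with dispase II and collagenase IV, enzymes that cut matrix proteins, and filtered before RNA extraction. The labels do not say which salivary gland was taken or when in the course of diabetes, and they number the mice within a group without stating separate litters or days, so each array was read as 1 mouse.

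Fibrillar collagens, chiefly types I and III, are made by fibroblasts and give connective tissue its tensile strength. Type IV collagen forms the sheet-like network of basement membranes under epithelia and around capillaries, and FACIT collagens decorate the surface of fibrils. Small leucine-rich proteoglycans such as decorin and biglycan bind collagen fibrils and growth factors. Matricellular proteins such as thrombospondin 1 and SPARC act on cells and on matrix assembly more than as building material, while elastin and the fibulins form elastic fibres.

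The unit throughout is the log2 intensity of a probe set, and a difference of 1 is a 2-fold change. Differences in level were taken between mice for the same probe set, not between genes, since probe sets differ in brightness. The counts of arrays above a percentile do set genes side by side, and so depend on that brightness too. Differences are given ± SE, from 1 limma fit to all genes, and a gene passed the test at an adjusted p under 0.05 over all 18826 genes. Each member lay above its array's 25th percentile on all 10 arrays, and 41 of the 58 lay above the array's median on all 10. Lowest by this measure were Col12a1, Col28a1 and Col4a4, above the median on 0 arrays. Collagens of cartilage were split. Col10a1, Col11a1 and Col9a1 were above it on 1 array, and Col2a1, Col9a2, Col9a3 and Col11a2 on all 10. The array least like the rest was that of nondiabetic 21-week mouse 3, whose r with the other arrays was 0.901 to 0.93. It was the lowest of its group for 49 of the 58 members, against 57.5% of all genes tested, so the counts and the larger differences of both comparisons that use this group are also given without it. In the digested and filtered gland cells analysed here, fewer cells of a type, their loss in digestion or filtering, and less RNA per cell cannot be told apart.

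The first comparison was of 4 diabetic with 3 nondiabetic mice at 21 weeks, the contrast that the series' design text names. The small leucine-rich proteoglycans, the fibulins, fibronectin and thrombospondin 1 had higher means in the diabetic glands, by up to 1.44 on the log2 scale, while the fibrillar and basement membrane collagens had means within 0.55 of the nondiabetic ones. By limma 0 of the 58 members passed the test over all genes, where 1.44% of all genes did, 1.1% higher and 0.34% lower. At an unadjusted p under 0.05, 11 members were higher and 2 lower, 19% and 3.45% of the members, against 10.8% and 5.04% of all genes (15.8% in all). Values of the diabetic and nondiabetic mice were fully separate for 12 members (14.1% of all genes), 9 of them higher and 3 lower in the diabetic mice, against 9.11% and 4.98% of all genes. The 9 were Bgn, Dcn, Lum, Fbln1, Fbln2, Postn, Sparcl1, Thbs1 and Col6a6, so 1 of 9 was a collagen. The median difference was 0.82 over the 14 glycoproteins and proteoglycans, −0.02 over the 44 collagens and 0.03 over all genes. Without nondiabetic mouse 3 the members at an unadjusted p under 0.05 numbered 7 higher and 4 lower, the medians were 0.62 over the glycoproteins and proteoglycans, −0.15 over the collagens and −0.02 over all genes, and 84 genes passed over the whole array, against 271 with it. Over all arrays left out in turn these member counts ranged over 7 to 14 higher and 0 to 4 lower.

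**Figure D1:**
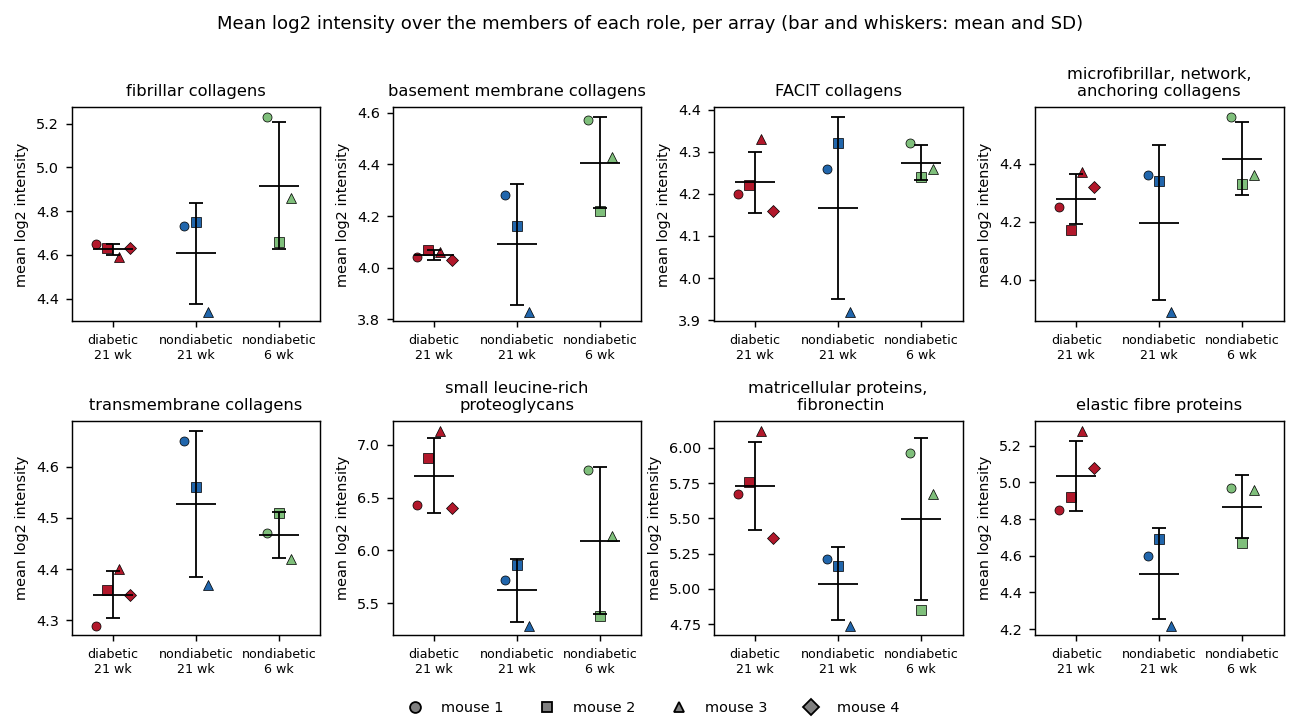
Mean log2 intensity over the genes of each matrix role, 1 point per mouse with group mean and SD; groups run from diabetic 21 weeks through nondiabetic 21 weeks to nondiabetic 6 weeks. For the small leucine-rich proteoglycans the diabetic mice lie between 6.40 and 7.13 and the nondiabetic 21-week mice between 5.29 and 5.86, while for the fibrillar collagens the diabetic mice lie between 4.59 and 4.65, inside the nondiabetic 21-week range of 4.34 to 4.75.

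Biglycan, the product of Bgn, is a small proteoglycan of connective tissue that also acts as a danger signal on innate immune cells. Its probe set read 7.29, 7.56, 7.67 and 7.57 in the diabetic mice, against 6.56, 6.21 and 5.61 in the nondiabetic 21-week mice and 7.78, 6.11 and 7.01 in the 6-week mice. The 4 diabetic mice were all above the 3 nondiabetic mice of their age and within the spread of the young mice. The difference at 21 weeks was 1.40 ± 0.32 (95% interval 0.71 to 2.08), with an adjusted p of 0.0502 by limma, just short of the threshold. A second Bgn probe set, dimmer on average, differed by only 0.26 ± 0.20, so the probe sets of this gene did not give the same size. Without nondiabetic mouse 3 the difference was 1.14 ± 0.33 (limma adjusted p = 0.203).

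The RefSeq promoter window of Bgn is shown because this gene had the smallest p of the members in the contrast of diabetes. It covers 250 bases before to 50 after the annotated start, chrX:73483351-73483650 on the plus strand of GRCm38.p6. Capitals mark GC boxes, the motif GGGCGG on either strand, of which the window holds 3, 2 of them overlapping.
Bgn: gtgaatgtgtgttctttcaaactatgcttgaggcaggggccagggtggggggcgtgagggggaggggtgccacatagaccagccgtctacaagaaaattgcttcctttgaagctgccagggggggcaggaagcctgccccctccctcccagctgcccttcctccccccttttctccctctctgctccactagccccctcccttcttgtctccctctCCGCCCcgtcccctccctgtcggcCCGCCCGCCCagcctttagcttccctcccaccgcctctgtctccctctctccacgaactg
Windows were found for 43 of the 58 members. A GC box lay in 26 of these 43 genes and in 55.1% of their 49 windows, against 35.7% of all 32851 windows of this length, and this count is a description of letters only.

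Decorin (Dcn), which binds collagen I fibrils and limits their width, read 8.78, 9.36, 9.90 and 10.03 in the diabetic mice, against 8.29, 8.33 and 7.62 in the nondiabetic 21-week mice and 9.39, 7.82 and 8.60 in the 6-week mice. The groups of 21 weeks did not overlap, and the diabetic mice overlapped with the young ones. The difference from the nondiabetic 21-week mice was 1.44 ± 0.36 (95% interval 0.67 to 2.21). Without nondiabetic mouse 3 it was 1.21 ± 0.39 (limma adjusted p = 0.244).

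Lumican (Lum), which governs fibril spacing, read 5.23, 6.01, 5.93 and 5.06 in the diabetic mice, against 4.46, 4.52 and 4.15 in the nondiabetic 21-week mice and 5.75, 3.71 and 5.07 in the 6-week mice. The older groups did not overlap, while the young mice ranged from below all older mice to within the diabetic range. The difference at 21 weeks was 1.18 ± 0.38 (limma adjusted p = 0.161), and 1.07 ± 0.44 without nondiabetic mouse 3. Osteoglycin (Ogn) differed by 1.17 ± 0.50 with overlapping groups, and fibromodulin (Fmod) by 0.23 ± 0.18, so the differences of all 5 proteoglycans were positive and 0 of 5 passed.

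Thrombospondin 1 (Thbs1), a secreted protein that activates latent TGF-beta and restrains vessel growth, read 5.64, 5.29, 5.97 and 4.91 in the diabetic mice, against 4.72, 4.22 and 4.38 in the nondiabetic 21-week mice and 4.33, 3.46 and 4.36 in the 6-week mice. Every diabetic mouse lay above all 6 nondiabetic mice. The difference at 21 weeks was 1.01 ± 0.26 (limma adjusted p = 0.0841), and without nondiabetic mouse 3 it was 0.98 ± 0.31.

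Fibronectin (Fn1), the adhesive glycoprotein on which cells spread and collagen is deposited, read 5.95, 6.13, 6.79 and 5.36 in the diabetic mice, against 4.78, 5.46 and 4.48 in the nondiabetic 21-week mice and 6.09, 4.60 and 5.70 in the 6-week mice. Diabetic mouse 4 lay below the highest nondiabetic mouse of its age, so these groups overlapped. The difference was 1.15 ± 0.37 (limma adjusted p = 0.16), and 0.94 ± 0.41 without nondiabetic mouse 3. Periostin (Postn), a matricellular protein of activated fibroblasts, read 4.35, 4.86, 4.71 and 4.03 in the diabetic mice, against 3.92, 3.88 and 3.14 in the nondiabetic 21-week mice and 4.49, 3.61 and 4.55 in the 6-week mice. Its older groups did not overlap, with a difference of 0.84 ± 0.27 (limma adjusted p = 0.158), and 0.59 ± 0.27 without nondiabetic mouse 3.

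Fibulin 1 (Fbln1), which links elastic fibres, fibronectin and basement membranes, read 5.28, 5.35, 5.87 and 5.62 in the diabetic mice, against 4.81, 4.93 and 4.46 in the nondiabetic 21-week mice and 5.41, 4.88 and 5.13 in the 6-week mice. The older groups did not overlap. The difference was 0.80 ± 0.18 (95% interval 0.41 to 1.19), and without nondiabetic mouse 3 it was 0.66 ± 0.19 (limma adjusted p = 0.193). Fibulin 2 (Fbln2) read 5.09, 5.16, 5.70 and 5.58 in the diabetic mice, against 4.90, 4.73 and 4.34 in the nondiabetic 21-week mice and 5.14, 4.89 and 5.0 in the 6-week mice, with a difference of 0.73 ± 0.18 at 21 weeks (limma adjusted p = 0.0673), and 0.57 ± 0.18 without nondiabetic mouse 3. Elastin (Eln) itself differed by 0.21 ± 0.14 and Fbln5 by 0.38 ± 0.24, both with overlapping groups. Sparcl1, a relative of SPARC made by vessels and stroma, differed by 0.53 ± 0.26 without overlap (limma adjusted p = 0.337).

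**Figure D2:**
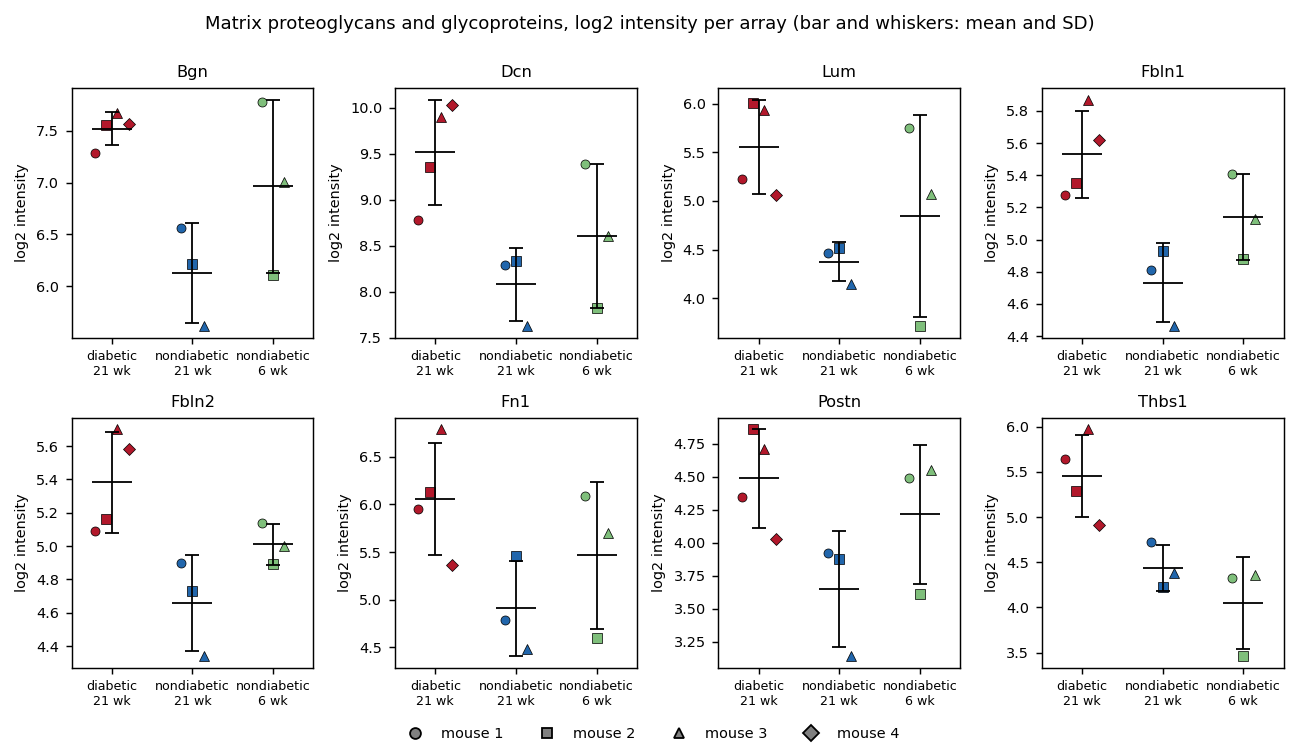
Log2 intensity of 8 proteoglycans and glycoproteins, 1 point per mouse with group mean and SD. The 4 diabetic mice lie above the 3 nondiabetic 21-week mice for 7 of the 8 genes, the exception being Fn1, and the 6-week mice spread widely, with Bgn between 6.11 and 7.78.

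The collagens had smaller differences. Col1a1, the main chain of type I collagen, read 5.93, 6.17, 5.70 and 5.74 in the diabetic mice, against 6.17, 5.91 and 5.49 in the nondiabetic 21-week mice, and differed by 0.03 ± 0.24 (95% interval −0.49 to 0.54). Col3a1, the chain of type III collagen, differed by 0.20 ± 0.36 (95% interval −0.58 to 0.98). Its values were 5.63, 5.75, 5.20 and 5.03 in the diabetic mice, against 5.42, 5.54 and 4.65 in the nondiabetic 21-week mice. Col1a2, the partner chain of type I collagen, differed by 0.55 ± 0.29 (limma adjusted p = 0.386), with 5.65, 5.78, 5.71 and 5.36 in the diabetic mice against 5.11, 5.55 and 4.56 in the nondiabetic 21-week mice. Without nondiabetic mouse 3 the differences were −0.16 ± 0.25 for Col1a1, −0.08 ± 0.38 for Col3a1 and 0.30 ± 0.30 for Col1a2. The groups overlapped for all 3 genes, and the intervals of Col1a1 and Col3a1 include differences in either direction.

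Among the other collagens Col6a6, a chain of microfibrillar type VI collagen, was the 1 whose diabetic values all lay above the nondiabetic 21-week ones, at 4.76, 4.87, 5.15 and 5.05 in the diabetic mice against 4.74, 4.48 and 4.22 in the nondiabetic 21-week mice, a difference of 0.48 ± 0.17 (limma adjusted p = 0.192). Col6a1, another chain of that type, differed by 0.60 ± 0.28 and the fibril-associated Col14a1 by 0.53 ± 0.23, both with overlapping groups. Col6a1 read 5.34, 5.48, 5.44 and 5.71 in the diabetic mice, against 5.54, 5.07 and 4.07 in the nondiabetic 21-week mice and 5.74, 5.04 and 5.51 in the 6-week mice. Without nondiabetic mouse 3 the difference of Col6a1 was 0.19 ± 0.20, and its second probe set gave 0.21 ± 0.14 with all arrays. Col14a1 read 4.50, 5.10, 5.16 and 4.38 in the diabetic mice, against 4.37, 4.42 and 3.96 in the nondiabetic 21-week mice and 5.03, 4.30 and 4.58 in the 6-week mice, so diabetic mouse 4 lay within the nondiabetic range of its age. Col13a1, Col19a1 and Col4a3 were lower in each diabetic mouse than in each nondiabetic 21-week mouse, by −0.26 ± 0.11, −0.34 ± 0.13 and −0.19 ± 0.11. Col4a3 read 3.61, 3.61, 3.50 and 3.46 in the diabetic mice, against 3.79, 3.69 and 3.74 in the nondiabetic 21-week mice and 3.93, 3.75 and 3.90 in the 6-week mice. Col13a1 is a transmembrane collagen, a class whose 4 genes all had negative differences (median −0.18). The differences of the hemidesmosome collagen Col17a1 (−0.09 ± 0.12) and of Col18a1 (0.15 ± 0.16), the source of endostatin, were smaller than or close to their errors, as was that of Col5a2 (0.06 ± 0.17). Col17a1 read 4.17, 4.28, 4.09 and 4.15 in the diabetic mice, against 4.35, 4.30 and 4.14 in the nondiabetic 21-week mice and 3.89, 4.17 and 4.11 in the 6-week mice. Col18a1 read 4.24, 4.51, 4.0 and 3.99 in the diabetic mice, against 4.31, 4.06 and 3.75 in the nondiabetic 21-week mice and 4.21, 4.11 and 3.98 in the 6-week mice. Col5a2, a chain of type V collagen that sets fibril width, read 3.80, 3.50, 3.76 and 3.54 in the diabetic mice, against 3.80, 3.76 and 3.21 in the nondiabetic 21-week mice and 4.13, 3.66 and 3.65 in the 6-week mice, and the groups of 21 weeks overlapped for all 3 genes.

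The second comparison set nondiabetic mice of 21 weeks (n = 3) against nondiabetic mice of 6 weeks (n = 3). It shares the nondiabetic 21-week mice with the first, so a low value there lowers one difference and raises the other. Sparc, Col3a1, Col1a2, Bgn, Col4a1, Col1a1 and Col4a2 had lower means in the older mice, with differences of −1.14 to −0.67 on the log2 scale. For Bgn this was the brighter probe set, and its dimmer one differed by only −0.10 ± 0.22. By limma 0 of the 58 members passed, where 0.0266% of all genes did, 0.00531% higher and 0.0212% lower. At an unadjusted p under 0.05, 13 members were lower and 0 higher, 22.4% of the members, against 5.27% and 2.19% of all genes (7.47% in all). The groups did not overlap for 5 members (13.8% of all genes): Sparc, Col4a1, Col6a4 and Eln were lower in the older mice, as were 9.73% of all genes, and Col27a1 was higher, as were 4.11%. The median difference was −0.21 over the members, against −0.06 over all genes. Negative differences were found for 47 of the 58 members and for 11642 of all 18826 genes. Without nondiabetic 21-week mouse 3 the median over the members was −0.10 and 4 members were lower at an unadjusted p under 0.05. Without 6-week mouse 1, which was the highest of its group for 36 of the 58 members (33.7% of all genes), the median was −0.12 and the count 5, and without 6-week mouse 2 the count was 19.

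Sparc, a secreted collagen-binding protein that assists basement membrane and fibril assembly, read 5.82, 5.45 and 5.08 in the nondiabetic 21-week mice, against 7.06, 6.01 and 6.38 in the 6-week mice. The groups did not overlap, with means of 5.45 ± 0.37 and 6.49 ± 0.53 (SD, n = 3 each). The difference was −1.03 ± 0.24 (95% interval −1.56 to −0.51, limma adjusted p = 0.363), and −0.85 ± 0.25 without mouse 3. In the diabetic mice Sparc read 5.45, 5.48, 5.44 and 5.19, so both groups of 21 weeks lay below every young mouse.

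The promoter window of Sparc is shown because Sparc had the smallest p among the members in the contrast of age and passed between diabetic and young mice. It lies at chr11:55420031-55420330 on the minus strand of GRCm38.p6 and is printed 5′ to 3′ along the gene. The motifs searched on both strands were the CCAAT box, the TATA box (TATAAA), the GC box (GGGCGG) and the AP-1 site (TGANTCA), and none of them is spelled in it, so it has no capitals.
Sparc: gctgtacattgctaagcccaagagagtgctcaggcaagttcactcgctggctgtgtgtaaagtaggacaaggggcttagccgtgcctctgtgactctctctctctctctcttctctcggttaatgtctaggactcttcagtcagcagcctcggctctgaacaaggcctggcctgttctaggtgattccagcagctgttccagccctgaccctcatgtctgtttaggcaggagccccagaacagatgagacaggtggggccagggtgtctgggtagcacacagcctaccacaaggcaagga
Over all windows, a CCAAT box was found in 37.4%, a TATA box in 13.6% and an AP-1 site in 7.8%, against 32.7%, 14.3% and 2% of the member windows.

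Type IV collagen of most basement membranes is built from the chains of Col4a1 and Col4a2. Col4a1 read 5.33, 5.21 and 4.59 in the nondiabetic 21-week mice, against 6.21, 5.39 and 5.76 in the 6-week mice, and 5.06, 4.92, 5.22 and 4.99 in the diabetic mice. Col4a2 read 5.22, 5.08 and 4.53 in the nondiabetic 21-week mice, against 5.99, 5.21 and 5.64 in the 6-week mice, and 4.83, 4.77, 4.80 and 5.04 in the diabetic mice. For Col4a1 the nondiabetic groups did not overlap, and for Col4a2 they overlapped by 1 mouse each, at 5.22 in the older and 5.21 in the young mice. The difference of age was −0.75 ± 0.22 for Col4a1 and −0.67 ± 0.21 for Col4a2 (limma adjusted p = 0.52 and 0.572), and −0.52 ± 0.20 and −0.46 ± 0.20 without mouse 3. The chains of Col4a3, Col4a4, Col4a5 and Col4a6, which are restricted to particular basement membranes, differed by −0.17 to −0.04.

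The windows of Col4a1 and Col4a2 are shown because the genes lie side by side on opposite strands, their annotated 5′ ends overlapping, and had 2 of the 3 smallest p among the members in the contrast of age. Their annotated starts lie 21 bases apart on chromosome 8, and 78 bases, printed in capitals, are common to both windows as reverse complements. Col4a1 is at chr8:11312777-11313076 on the minus strand and Col4a2 at chr8:11312555-11312854 on the plus strand of GRCm38.p6.
Col4a1: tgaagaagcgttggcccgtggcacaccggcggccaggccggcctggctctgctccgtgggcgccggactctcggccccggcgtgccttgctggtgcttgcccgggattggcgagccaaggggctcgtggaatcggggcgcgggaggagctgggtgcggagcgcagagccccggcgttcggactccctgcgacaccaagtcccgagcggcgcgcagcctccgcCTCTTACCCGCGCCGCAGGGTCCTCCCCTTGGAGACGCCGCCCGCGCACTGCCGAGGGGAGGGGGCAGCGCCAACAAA
Col4a2: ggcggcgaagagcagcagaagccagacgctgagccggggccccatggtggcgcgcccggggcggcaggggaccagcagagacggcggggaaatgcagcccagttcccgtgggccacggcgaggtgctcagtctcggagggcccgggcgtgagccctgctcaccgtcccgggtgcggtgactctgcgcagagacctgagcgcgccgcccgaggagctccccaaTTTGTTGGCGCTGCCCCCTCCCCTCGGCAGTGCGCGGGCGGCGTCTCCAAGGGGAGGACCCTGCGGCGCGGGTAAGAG
The Col4a1 window holds a CCAAT on its reverse strand and the Col4a2 window 1 on its forward strand, and both hold GGGCGG.

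Col3a1 read 5.42, 5.54 and 4.65 in the nondiabetic 21-week mice, against 7.24, 5.38 and 6.40 in the 6-week mice. Young mouse 2 lay within the range of the older mice, so the groups overlapped, and the difference was −1.14 ± 0.38 (95% interval −1.97 to −0.31, limma adjusted p = 0.577). Without nondiabetic 21-week mouse 3 it was −0.86 ± 0.40. Col1a1 read 6.17, 5.91 and 5.49 in the nondiabetic 21-week mice, against 7.05, 5.94 and 6.66 in the 6-week mice, a difference of −0.69 ± 0.25 (limma adjusted p = 0.617), and −0.51 ± 0.27 without mouse 3. The 6-week mice kept 1 order for these fibrillar chains, for Sparc and for Col4a1, with mouse 1 highest and mouse 2 lowest.

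Col1a2 read 5.11, 5.55 and 4.56 in the nondiabetic 21-week mice, against 6.78, 5.35 and 5.90 in the 6-week mice, a difference of −0.94 ± 0.31 (limma adjusted p = 0.572) that its second probe set gave as −0.78 ± 0.27, and of −0.68 ± 0.32 without mouse 3. Its promoter window, chr6:4505368-4505667 on the plus strand of GRCm38.p6, is shown as that of a fibrillar chain whose CCAAT box is known to bind the CCAAT-binding factor. Capitals mark CCAAT on either strand (2 matches, the reverse one reading ATTGG) and GGGCGG (2 matches).
Col1a2: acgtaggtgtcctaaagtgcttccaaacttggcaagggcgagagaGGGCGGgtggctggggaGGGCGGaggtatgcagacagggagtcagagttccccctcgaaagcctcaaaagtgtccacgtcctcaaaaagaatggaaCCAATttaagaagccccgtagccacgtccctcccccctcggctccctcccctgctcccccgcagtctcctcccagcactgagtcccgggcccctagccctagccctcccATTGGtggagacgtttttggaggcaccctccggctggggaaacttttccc

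Of the remaining basement membrane collagens, Col15a1 read 4.64, 4.80 and 4.22 in the nondiabetic 21-week mice, against 5.50, 4.75 and 5.08 in the 6-week mice, and 4.60, 4.61, 4.77 and 4.07 in the diabetic mice. It differed by −0.56 ± 0.23 with age and Col18a1 by −0.06 ± 0.18. Eln read 4.03, 4.34 and 4.21 in the nondiabetic 21-week mice, against 4.40, 4.56 and 4.81 in the 6-week mice, and 4.36, 4.40, 4.25 and 4.59 in the diabetic mice. Its difference of −0.40 ± 0.15 with age was without overlap (limma adjusted p = 0.619). Bgn (−0.84 ± 0.34), Dcn (−0.52 ± 0.38), Lum (−0.47 ± 0.41) and Fn1 (−0.56 ± 0.40) all had negative differences with overlapping groups. That of Bgn ranged from −1.27 to −0.44 with 1 array left out. Thbs1 was the 1 of 14 glycoproteins and proteoglycans with a positive difference, 0.39 ± 0.28.

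**Figure D3:**
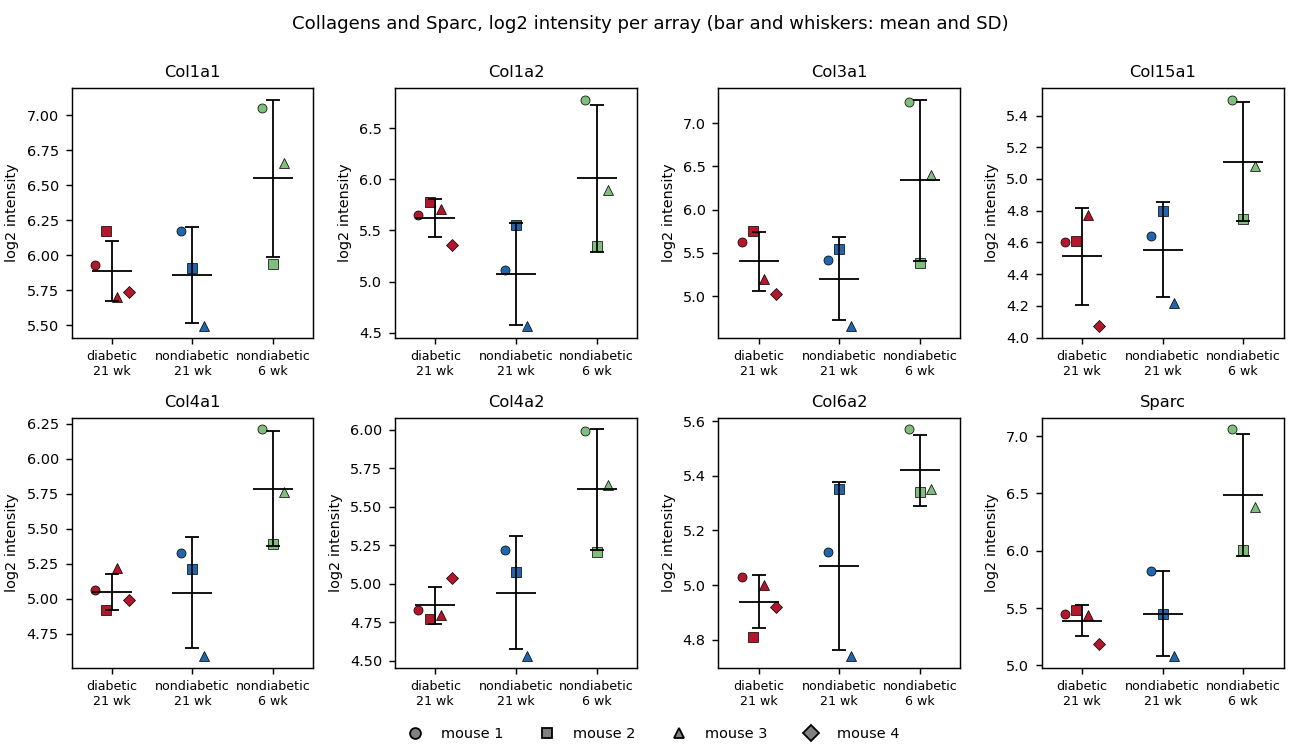
Log2 intensity of 7 collagens and Sparc, 1 point per mouse with group mean and SD. For Sparc the diabetic mice (5.19 to 5.48) and the nondiabetic 21-week mice (5.08 to 5.82) lie below all 6-week mice (6.01 to 7.06), and for Col3a1 6-week mouse 2 lies among the older mice.

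The last comparison set diabetic mice of 21 weeks (n = 4) against nondiabetic mice of 6 weeks (n = 3), which differ in both disease and age, so disease and age cannot be told apart in it. It shares its groups with the comparisons above. Thbs1 rose and Sparc fell, the 2 of 58 members that passed the limma test, 3.45% of the members against 1.44% of all genes, of which 0.903% rose and 0.542% fell. At an unadjusted p under 0.05, 2 members were higher and 11 lower, 3.45% and 19%, against 7.7% and 7.23% of all genes (14.9% in all). Without 6-week mouse 1 these counts were 7 higher and 6 lower. Groups did not overlap for 11 members (16.7% of all genes, 8.2% higher and 8.49% lower), with Thbs1 higher and 10 lower, namely Sparc and 9 collagens: Col4a1, Col4a2, Col4a3, Col4a5, Col6a2, Col8a1, Col9a3, Col13a1 and Col19a1.

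Thbs1 averaged 5.45 ± 0.45 (SD, n = 4) in the diabetic mice, against 4.05 ± 0.51 (n = 3) in the young mice, and rose 2.65-fold (1.40 ± 0.26, limma adjusted p = 0.0244). Sparc averaged 5.39 ± 0.14 (SD, n = 4) in the diabetic mice, against 6.49 ± 0.53 (n = 3) in the young mice, and fell 2.14-fold (−1.10 ± 0.23, limma adjusted p = 0.0355). Both calls were lost when diabetic mouse 1, diabetic mouse 3, 6-week mouse 1 or 6-week mouse 3 was left out, with limma adjusted p between 0.0514 and 0.119. The Sparc call was also lost without diabetic mouse 2, diabetic mouse 4 or nondiabetic 21-week mouse 2, and the Thbs1 call without 6-week mouse 2. The sign of either difference was the same under all 21 alternatives.

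Col4a2 (−0.75 ± 0.20, limma adjusted p = 0.0862) and Col4a1 (−0.74 ± 0.21, limma adjusted p = 0.107) came next, close in size to their differences between the nondiabetic ages. Without nondiabetic 21-week mouse 3, whose array adds to the estimate of the spread, Col4a2 passed (limma adjusted p = 0.0419). Col6a2, a chain of type VI collagen, read 5.03, 4.81, 5.0 and 4.92 in the diabetic mice, against 5.57, 5.34 and 5.35 in the young mice (−0.48 ± 0.15, limma adjusted p = 0.145), and 5.12, 5.35 and 4.74 in the nondiabetic 21-week mice. Col3a1 stood at −0.94 ± 0.36 and Col1a1 at −0.67 ± 0.24, both with overlapping groups. The proteoglycans differed the other way, Dcn by 0.92 ± 0.36, Ogn by 0.87 ± 0.50, Lum by 0.71 ± 0.38 and Bgn by 0.56 ± 0.32, and all of these overlapped. The median over the 44 collagens was −0.16 and over the 14 other members 0.38, against −0.02 over all genes. The collagen median was −0.08 without 6-week mouse 1, and that of the other members 0.14 without 6-week mouse 2.

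**Figure D4:**
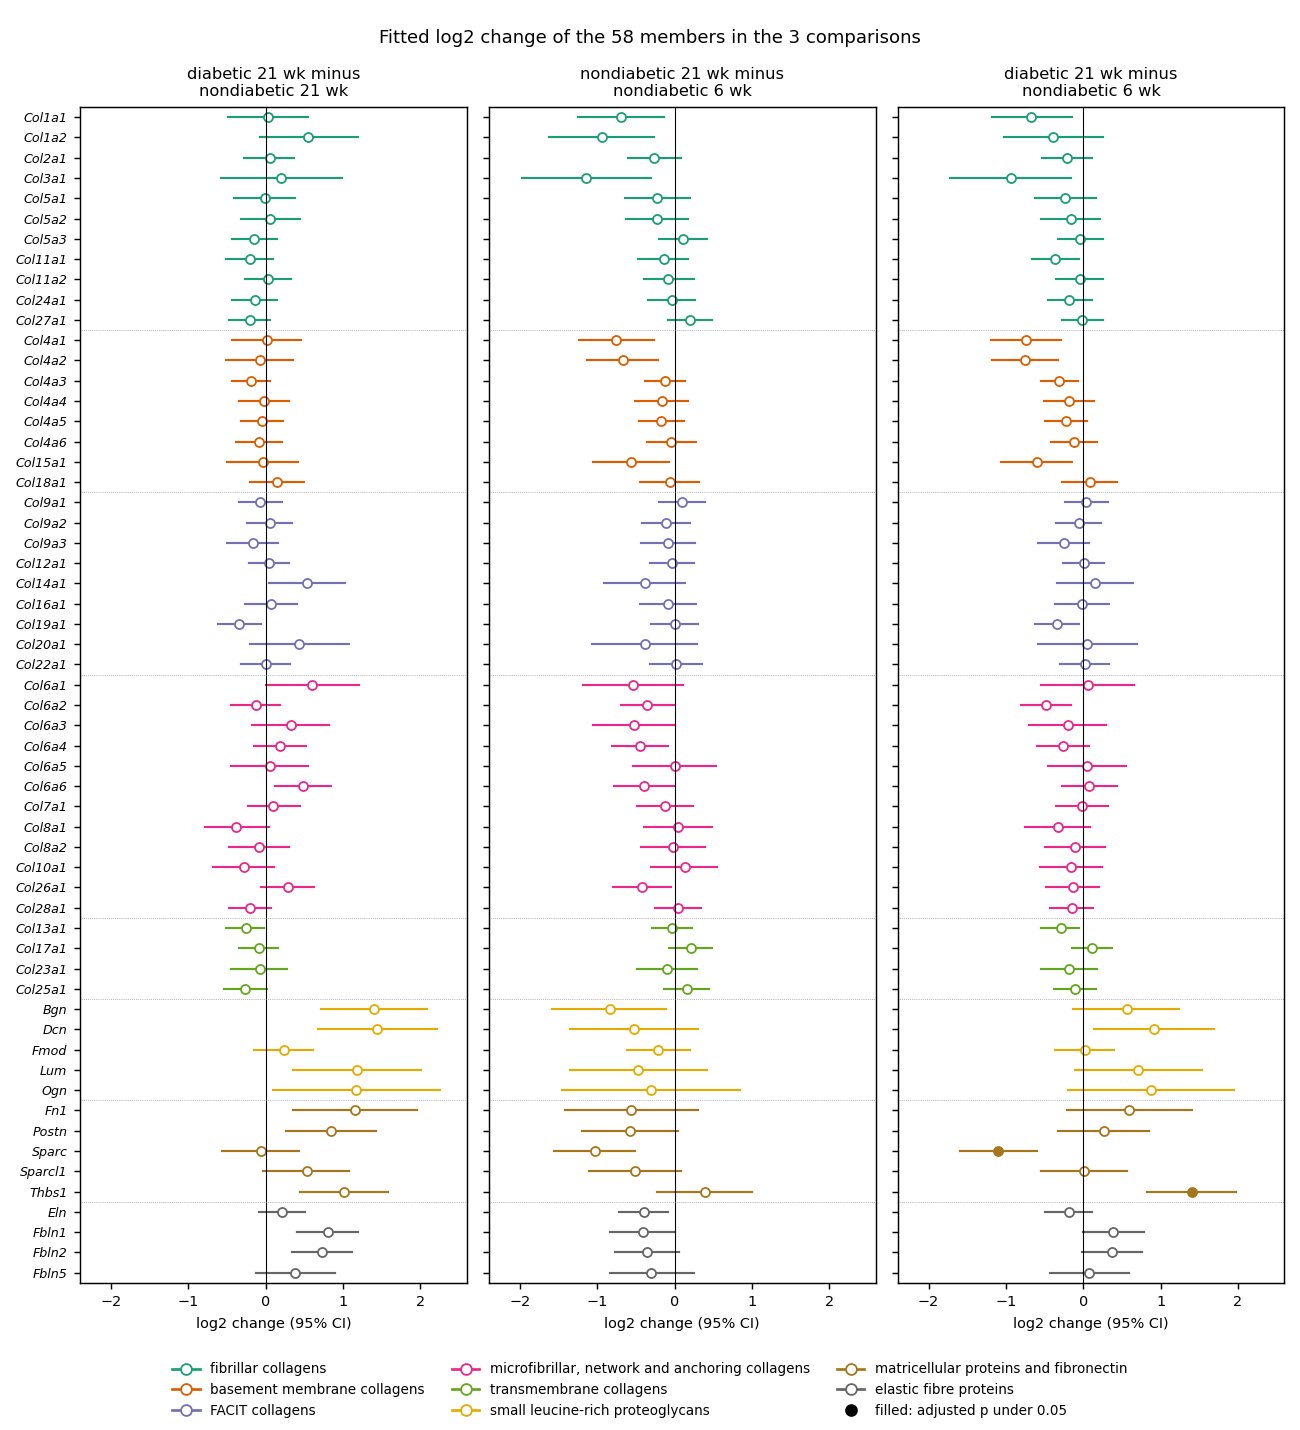
Fitted log2 difference of each of the 58 members with its 95% interval in the 3 comparisons, ordered by role; filled points passed an adjusted p of 0.05. Only Sparc (−1.10) and Thbs1 (1.40) are filled, both in the comparison of diabetic 21-week with nondiabetic 6-week mice, and most proteoglycan and fibulin points lie right of 0 in the comparison at 21 weeks.

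Enzymes and partners of the matrix were taken from lists of the pathway. Over all genes 1.1% rose and 0.34% fell in the contrast of diabetes. With age 0.00531% rose and 0.0212% fell, and for both 0.903% and 0.542%. Of 28 measured collagen processing and crosslinking genes, 1 rose between the diabetic and nondiabetic 21-week mice: P4ha1, a catalytic chain of the prolyl hydroxylase that stabilises the collagen triple helix (1.70-fold, limma adjusted p = 0.0329). Its values were 5.07, 4.72, 4.64 and 4.55 in the diabetic mice, against 3.93, 4.03 and 3.97 in the nondiabetic 21-week mice. Tll1, a tolloid protease able to cleave procollagen ends, fell 4.15-fold between nondiabetic mice of 21 and 6 weeks (limma adjusted p = 0.0057, and 0.0516 without 6-week mouse 3). It read 3.67, 4.17 and 4.05 in the nondiabetic 21-week mice, against 5.71, 6.00 and 6.35 in the 6-week mice, and 3.67, 3.42, 4.24 and 3.46 in the diabetic mice. It fell 5-fold between diabetic and young mice (limma adjusted p = 0.000888), and the other 27 genes of the list did not pass in that comparison or in that of age.

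Of 19 laminins and basement membrane partners, 2 rose in the diabetic mice relative to nondiabetic mice of 21 weeks, Lama4, the laminin chain of vessels and muscle (1.82-fold, limma adjusted p = 0.0271), and Lama5, the chain of epithelial basement membranes (1.64-fold, limma adjusted p = 0.0445). The calls of P4ha1, Lama4 and Lama5 were kept in 3, 5 and 2 of the 10 fits that left out 1 array, and each was lost without nondiabetic 21-week mouse 3. By limma 0 of the 19 passed in the contrasts of age and of both. At an unadjusted p under 0.05, 5 were lower and 0 higher with age, against 5.27% and 2.19% of all genes. For both, 2 were higher and 2 lower, against 7.7% and 7.23%. Among 20 genes of TGF-beta and profibrotic signalling, Ccn1, a matricellular protein (2.08-fold, limma adjusted p = 0.000608), and Tgfbr3, a co-receptor (1.88-fold, limma adjusted p = 0.0454), rose and the ligand Tgfb2 fell (2.02-fold, limma adjusted p = 0.0102) at 21 weeks. Ccn1 read 6.65, 6.76, 6.89 and 6.78 in the diabetic mice, against 5.59, 5.80 and 5.76 in the nondiabetic 21-week mice and 6.49, 6.43 and 6.44 in the 6-week mice. Tgfbi, a TGF-beta induced matrix protein, rose 1.86-fold between diabetic and young mice (limma adjusted p = 0.0456). The calls of Ccn1 and Tgfb2 were kept in 10 of 10 such fits and those of Tgfbr3 and Tgfbi in 2 of 10.

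By limma 0 of 37 other matrix glycoproteins and proteoglycans passed in each comparison. At an unadjusted p under 0.05 there were 12 (11 higher), 3 (0 higher) and 3 (3 higher) for diabetes, age and both. That level was reached by 15.8%, 7.47% and 14.9% of all genes. Mfap5, a microfibril protein, had the smallest p of the 37 at 21 weeks (1.2 ± 0.30, limma adjusted p = 0.0745). By limma 0 of 22 matrix receptors passed, with 5, 1 and 3 at an unadjusted p under 0.05 (3, 0 and 2 of them higher). Ddr2, a receptor tyrosine kinase for fibrillar collagen, came closest (1.24 ± 0.28 at 21 weeks, limma adjusted p = 0.0502).

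Markers of several cell types moved with the contrast of diabetes, those of fibroblasts, the main source of these proteins, among them. Of 16 measured fibroblast markers, 3 rose in the diabetic mice relative to nondiabetic mice of 21 weeks, as did 1.1% of all genes. They were Gpx3, Dpep1 and Mmp2, each at an adjusted p between 0.0229 and 0.039 by limma. For 11 markers the groups did not overlap and the diabetic mice were higher, against 9.11% of all genes. These 3 calls were kept in 8, 3 and 3 of the 10 fits that left out 1 array and lost without nondiabetic 21-week mouse 3. Mmp2, the gelatinase that degrades denatured collagen, read 5.94, 5.93, 6.56 and 6.23 in the diabetic mice, against 5.13, 5.0 and 3.96 in the nondiabetic 21-week mice. The mean of the list lay between 5.15 and 5.74 in the diabetic mice, against 4.17 to 4.82 in the nondiabetic 21-week mice and 4.51 to 5.45 in the 6-week mice. Pdgfra, the receptor that defines fibroblasts, lay between 5.92 and 6.65 in the diabetic mice, against 4.06 to 5.33 in the nondiabetic 21-week mice and 4.65 to 6.64 in the 6-week mice, and above the array median on all 10 arrays. Tcf21 exceeded it on 1 array.

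Of 11 measured macrophage markers, 2 rose between the diabetic and nondiabetic 21-week mice, Cd68 and Mrc1 (limma adjusted p = 0.0205 and 0.0397). For 7 the groups did not overlap and the diabetic mice were higher. At an unadjusted p under 0.05, 7 were higher and 1 was lower (−0.52), against 10.8% and 5.04% of all genes. The mean of the list was 5.58 to 6.10 in the diabetic mice. It was 4.96 to 5.19 in the nondiabetic 21-week mice and 4.92 to 5.38 in the 6-week mice. Of 9 adipocyte markers 3 rose, Car3, Fabp4 and Retn, and 6 did not overlap and were higher. Adipoq, which defines adipocytes, was above the array median on 0 arrays. The adipocyte mean was 4.67 to 5.01 in the diabetic mice, against 3.69 to 4.07 in the nondiabetic 21-week mice and 3.92 to 4.26 in the 6-week mice. Of 8 myoepithelial markers Myh11 and Acta2 rose, and 4 did not overlap and were higher. Of 11 pericyte and smooth muscle markers Myh11, which both lists hold, and Abcc9 rose. Over all genes 1.1% rose in this contrast, and 9.11% did not overlap and were higher.

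Of 12 endothelial markers, 0 passed in any comparison by limma. With age all 12 had negative differences (median −0.46), 5 of them at an unadjusted p under 0.05 (7.47% of all genes). In the contrast of diabetes 1 was higher and 1 lower at that level, against 10.8% and 5.04% of all genes. In that of both 1 was higher and 6 were lower, against 7.7% and 7.23%. The higher marker was Vwf each time, by 1.06 ± 0.27 and 0.93 ± 0.27 (limma adjusted p = 0.0805 and 0.124). Age medians were −0.43 over fibroblast, −0.44 over acinar and −0.36 over pericyte and smooth muscle markers, and −0.06 over all genes. They were positive over granular convoluted tubule (1.33), T cell (0.59) and B cell (0.58) markers. The endothelial mean lay between 5.02 (mouse 3) and 5.56 in the nondiabetic 21-week mice, against 5.55 to 5.90 in the 6-week mice. Rgs5, a pericyte gene, differed by −1.13 ± 0.21 with age (limma adjusted p = 0.16), and Kdr, a receptor for VEGF, by −1.06 ± 0.24 between diabetic and young mice (limma adjusted p = 0.0553).

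Genes that tell the salivary glands apart also moved with the groups. The mean of 6 cargo genes of the parotid gland lay between 10.28 and 10.74 in the diabetic mice, against 4.28 to 6.68 in the nondiabetic 21-week mice and 4.85 to 8.66 in the 6-week mice. Granular convoluted tubule genes, typical of the submandibular gland, had means of 5.0 to 6.86 in the diabetic mice. Their means were 9.26 to 9.96 in the nondiabetic 21-week mice and 8.10 to 8.60 in the 6-week mice. In the contrast of diabetes 10 of 11 fell, against 0.34% of all genes. Within the 6-week mice the parotid mean was highest in mouse 1 (8.66) and lowest in mouse 2 (4.85), the same order as for Bgn, Dcn, Sparc, Col1a1 and Col3a1. Within the nondiabetic 21-week mice mouse 3 had the highest parotid mean, 6.68 against 4.48 and 4.28, and the lowest value of these 5 genes. Immediate-early genes, which respond to tissue digestion, had means between 7.10 and 7.59 in the diabetic mice, against 6.16 to 6.44 in the nondiabetic 21-week mice and 6.24 to 6.52 in the 6-week mice. Of the 20 measured, 14 rose in the contrast of diabetes (1.1% of all genes) and 13 in that of both (0.903%), and 0 passed with age. Those with the smallest p for diabetes, Atf3, Klf6, Klf4 and Zfp36, kept their calls in 10 of 10 fits that left out 1 array. Chondrocyte and skeletal muscle lists had 0 calls by limma in each comparison. At an unadjusted p under 0.05 there were 0 to 2 genes a list, against 7.47% to 15.8% of all genes. The part of fibroblasts, macrophages, adipocytes, myoepithelial cells, vessels, the gland taken and the digestion in the differences above was not tested.

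**Figure D5:**
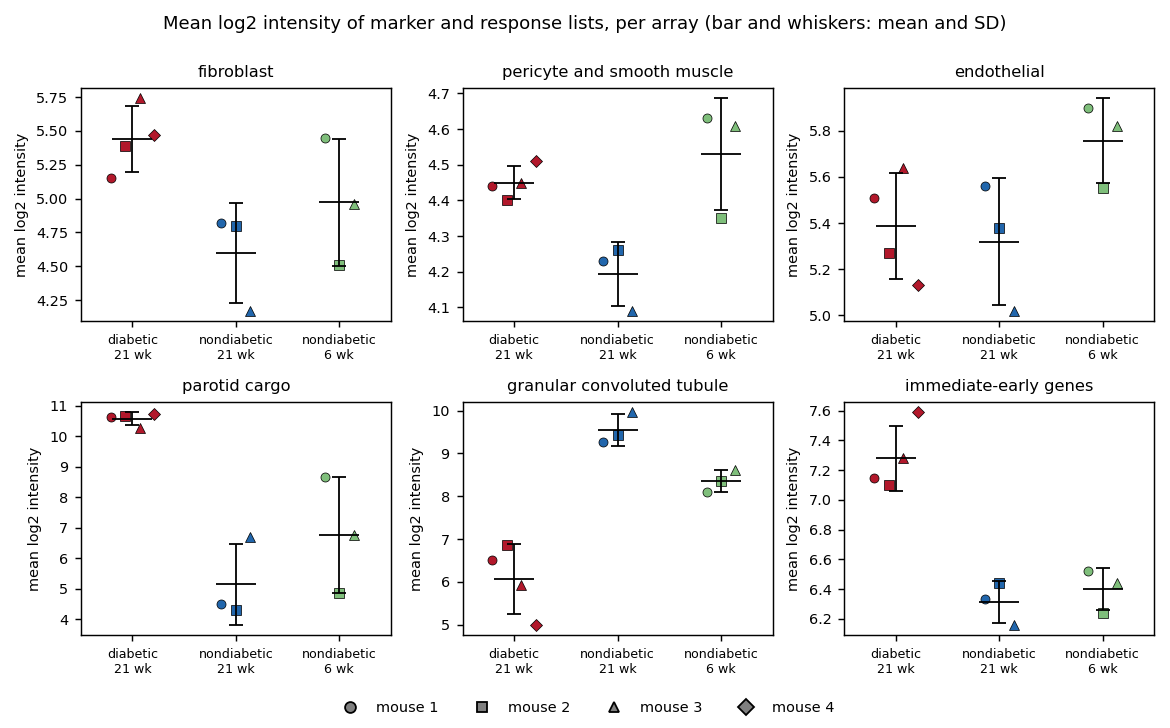
Mean log2 intensity of fibroblast, pericyte and endothelial markers, of parotid cargo and granular convoluted tubule genes and of immediate-early genes, 1 point per mouse with group mean and SD. Fibroblast means are 5.15 to 5.74 in the diabetic mice and 4.17 to 4.82 in the nondiabetic 21-week mice, and endothelial means are highest in the 6-week mice (5.55 to 5.90).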

How the data were processed

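Each deposited value is the log2 intensity of a probe set. Per the submitters' processing notes the authors used RMA and Affymetrix Power Tools, whose versions and settings are not given there. Of 41345 probe sets, 23521 carried 1 gene symbol, 1814 several and 16010 none, and only the first were used. The brightest of a gene's probe sets by mean over all arrays stood for it, and a gene was tested if above the array's 25th percentile on at least 3 arrays. Group means were fitted to all 10 arrays with limma 3.58.1 in R 4.3.3 (lmFit, eBayes), two-sided, with Benjamini-Hochberg adjustment over 18826 genes. The number of arrays limits the precision, and p-values measure the spread between these mice. The code was tested on simulated data. No arrays were identical.

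The members and the lists were chosen with earlier results of these data known. Values on every array were given for a set of 20 members and the 6 with the smallest p in each comparison. Of each other list and comparison, up to 4 genes past the threshold, or the 1 with the smallest p, could be named. Only some such genes are named, with Pdgfra, Tcf21 and Adipoq as defining markers. Alternatives changed the low-value filter, the probe sets, the arrays in the fit, the variance model, array weights, the scaling, the threshold and a replicate block, and left out each array in turn. Promoter windows are those of RefSeq, GRCm38.p6. All 58 members matched RefSeq by gene ID.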

Additional observations from a re-analysis of the deposited data

Results flagged for a closer look

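In the group of 4 diabetic mice, 1 mouse lay far from the others for 6 of the 58 members by Dixon's test, where chance gives about 1 in 20. The share over all genes was not counted, so this number cannot be read as particular to the members. Over all genes tested, mouse 4 was the lowest of the 10 arrays for 14.6% and the highest for 15.2%. The other diabetic mice were lowest for 6.39% to 8.9% and highest for 8.19% to 9.98%. Mouse 4 was low for Sparc, at 5.19 against 5.44 to 5.48, and for Fmod, at 3.85 against 4.31 to 4.38, and high for Col11a1, at 3.47 against 3.22 to 3.24. Mouse 2 was low for Col8a1, at 3.04 against 3.49 to 3.53, and for Col22a1, at 3.97 against 4.24 to 4.29. Mouse 1 was low for Col4a4, at 2.82 against 3.12 to 3.15.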

How the results depend on the processing

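The count of members past the threshold in the contrast of diabetes, 0 here, was 2 with the filter at each array's median (Bgn, Fbln1), 1 with only the 2 groups compared (Bgn), 1 with a trended and robust variance (Fbln1), 1 with array weights (Thbs1), 3 with each array centred on its median (Bgn, Fbln1, Fbln2), and 0 to 3 with 1 array left out. Between diabetic and young mice the count, 2 here, was 0 at an adjusted p under 0.01 and 0 to 3 with 1 array left out. For age it was 0 throughout. With the mouse number as a replicate block the counts were 1 (Thbs1) for diabetes and 1 for both. The labels do not say whether the numbers pair mice. Same-numbered mice had deviations correlated at −0.12 to 0.07 and other pairs at −0.11 to 0.15, which cannot exclude shared litters or days. Number 4 exists only in the diabetic group.

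Col4a1 in the contrast of diabetes was −0.22 without nondiabetic 21-week mouse 3, against 0.01 (−0.22 to 0.15 over the arrays left out), and Postn between diabetic and young mice was −0.03 without 6-week mouse 2, against 0.27 (−0.03 to 0.43); the cause was not tested. Genes passing over the whole array numbered 271, 5 and 272 for diabetes, age and both. They numbered 367, 18 and 672 with array weights, 364, 12 and 369 with a trended variance, 161, 0 and 310 with only the 2 groups compared, and 175, 39 and 505 without nondiabetic 21-week mouse 3 and diabetic mouse 4. With 1 array left out they ranged over 84 to 268, 1 to 10 and 48 to 393. Quantile normalization gave 130 higher and 100 lower genes for diabetes, against 207 and 64, and 157 and 162 for both, against 170 and 102.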
